A study of Mus musculus with 9 samples.

Results

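The genes described here are 9 through which a brain responds to corticosteroids, namely the glucocorticoid receptor gene Nr3c1, the mineralocorticoid receptor gene Nr3c2, the enzyme gene Hsd11b1, the chaperone genes Hsp90aa1, Hsp90ab1, Fkbp4 and Ptges3, and the peptide and receptor genes Crh and Crhr1. They were selected by gene symbol, and they are 9 of the 54532 genes listed for the mouse hippocampus. RNA sequencing covered 9 samples in 3 groups of 3, all from C57BL/6 mice, labelled wild type and male, and 6 to 8 weeks old when bought. The Con group was kept on standard feed. The HMD group had a high-methionine diet for 8 weeks, which raises homocysteine, an amino acid formed from methionine. The Bet+HMD group had that diet for 8 weeks and was then given 2.5% (w/v) betaine, a methyl donor, in the drinking water for 2 weeks, so by the labels this group was followed for longer. Whether the diet went on during those weeks is not clear. In the Bet+HMD samples the strain field of the labels runs on in number from sample to sample, and it was read as C57BL/6 for all. The study's methods give female mice. The libraries followed the labels: Xist, the RNA of the inactive X chromosome, had 0 to 14 reads, and the Y-linked gene Ddx3y had 1170 to 1687 reads.

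Corticosterone, the main glucocorticoid of mice, reaches neurons of the hippocampus and binds a pair of related nuclear receptors. The mineralocorticoid receptor binds it tightly and is occupied at resting hormone levels, while the glucocorticoid receptor binds more loosely and fills during stress or at the daily peak. Unbound receptors are held by the HSP90 chaperone, whose partners FKBP52 (from Fkbp4) and p23 (from Ptges3) help the complex to bind hormone and to move to the nucleus. The enzyme 11-beta-hydroxysteroid dehydrogenase 1 (from Hsd11b1) regenerates active hormone inside the cell. Corticotropin-releasing hormone (from Crh) starts the hormonal cascade from the hypothalamus, and in the hippocampus it is made by some interneurons and acts on the receptor CRHR1. The hippocampus is known for its high content of mineralocorticoid receptor.

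Between 16031464 and 18566712 reads per library fell on genes, and 3 reads were at most 1.87e-05% of a library. Levels are in FPKM, a count of sequenced fragments divided by the length of the gene and the depth of the library, so they can be compared between genes. The data came as an earlier table with Con and HMD and a later table with all 3 groups. The Bet+HMD libraries stood apart. Reads fell on 25315 to 25663 genes in them and on 20816 to 23272 genes in the other libraries of the later table. The summed level of 9 nuclear retained noncoding RNAs, none of them at 0, was 910 to 965 FPKM in Bet+HMD, 88.4 to 142 in Con and 102 to 149 in HMD. Since Bet+HMD was present in the later table alone, betaine, the longer time and a difference between batches cannot be told apart in any value below. All these values are from whole tissue, in which fewer cells of a type and less RNA per cell cannot be told apart.

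RefSeq promoters, 250 bases before to 50 bases after a gene's start, were given for 5 of the 9 genes, namely Nr3c2, Hsd11b1, Fkbp4, Ptges3 and Crhr1. Each was searched on both strands for 4 motifs. The core pair of the heat shock element, GAANNTTC, was in the promoters of Nr3c2 and Fkbp4 and in 7.86% of all 32851 promoters. The longer heat shock element, which adds GAA after 2 further bases and so contains the core pair (0.603% of all promoters), was in none of the 5. Neither were the full glucocorticoid response element, AGAACA and TGTTC with 3 bases between them (0.0487%), nor the cAMP response element TGACGTCA (1.79%). The stretch of the Nr3c2 promoter around the core pair is shown, a choice made with the values of this gene below known. Neither Hsp90aa1 nor Hsp90ab1 was among the 5 promoters, and control shared with them was not tested. The stretch lies at chr8:76902134-76902231 on the plus strand of GRCm38.p6 and touches no exon of GENCODE M21. It has the motif in capitals, beginning 151 bases before the RefSeq start. That start lies inside the span which the deposited tables give for Nr3c2, so the stretch is within the gene as located there and not upstream of it. A match is a description of letters and not of a bound site.
Nr3c2: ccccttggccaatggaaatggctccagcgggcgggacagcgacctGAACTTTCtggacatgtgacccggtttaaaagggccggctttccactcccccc

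Positions are on GRCm38 as the deposited tables give them, and all 9 genes are protein coding. Nr3c1 (ENSMUSG00000024431) is on chromosome 18 from 39410545 to 39491301 on the minus strand, and Nr3c2 (ENSMUSG00000031618) is on chromosome 8 from 76899442 to 77245012 on the plus strand. Hsd11b1 (ENSMUSG00000016194) is on chromosome 1 from 193221634 to 193264075 on the minus strand. Hsp90aa1 (ENSMUSG00000021270) lies on chromosome 12 from 110690605 to 110702728 and Hsp90ab1 (ENSMUSG00000023944) on chromosome 17 from 45567775 to 45573271, both on the minus strand. Fkbp4 (ENSMUSG00000030357) is on chromosome 6 from 128429735 to 128438677 on the minus strand, and Ptges3 (ENSMUSG00000071072) is on chromosome 10 from 128058954 to 128077272 on the plus strand. Crh (ENSMUSG00000049796) lies on chromosome 3 from 19693401 to 19695396 on the minus strand and Crhr1 (ENSMUSG00000018634) on chromosome 11 from 104132855 to 104175523 on the plus strand. Hsd11b1 overlaps Lamb3 and 4930570N18Rik on the opposite strand and Gm38118 on its own. Nr3c2 overlaps 3 further genes, Gm10649 and Gm24838 on the opposite strand and Gm23260 on its own. No source says that reads were assigned by strand, so reads of such partners cannot be told apart.

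The 9 genes spanned a wide range of levels, and the order of their group means was the same in Con, HMD and Bet+HMD. It ran from Hsp90ab1 through Hsp90aa1, Ptges3, Nr3c2, Fkbp4, Nr3c1, Hsd11b1 and Crhr1 to Crh. In Con of the later table Hsp90ab1 averaged 489 ± 35.1 FPKM (SD, n = 3), above 99.8% of the genes tested, and Crh averaged 1.17 ± 0.183 FPKM, above 7.07% of them. Nr3c2 exceeded Nr3c1 in each of the 9 libraries. Neighbours in the order were separate in every group at Hsp90ab1 over Hsp90aa1, Hsp90aa1 over Ptges3, Nr3c1 over Hsd11b1 and Crhr1 over Crh. Nr3c2 and Fkbp4 overlapped in Con and HMD, Fkbp4 and Nr3c1 in Con and Bet+HMD, Ptges3 and Nr3c2 in Con, and Hsd11b1 and Crhr1 in Bet+HMD. All 9 genes passed the minimum mean of 1 FPKM in each comparison, although Crh, a peptide gene of few cells, did so on 23 to 42 reads per library.

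**Figure D1:**
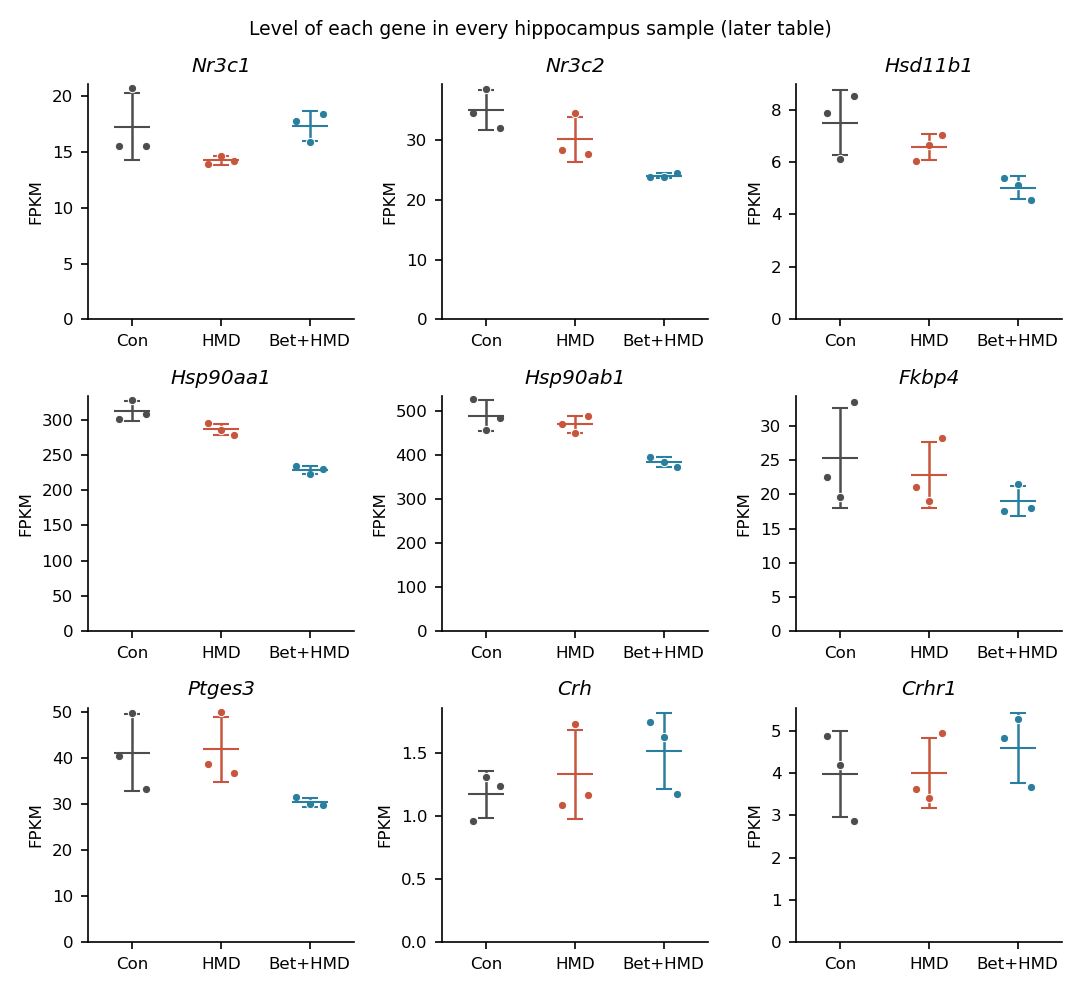
FPKM (vertical axis from 0, a separate scale for each gene) of the 9 genes in the 3 Con, 3 HMD and 3 Bet+HMD samples of the later table, with each point a sample and bars the mean ± SD. Nr3c2 in Bet+HMD lies between 23.8 and 24.6 FPKM, below all Con and HMD samples, while Nr3c1 in Bet+HMD (15.9 to 18.4) lies above all HMD samples (13.9 to 14.7) and within the spread of Con.

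HMD was compared with Con to find what the diet changed. None of the 9 genes passed the test. Nr3c1 and Hsp90aa1 were lower in every HMD sample than in any Con sample, by amounts that the test did not separate from the spread between samples. The means of 6 genes were lower in HMD and those of 3, Ptges3, Crh and Crhr1, were higher. With limma on log2(FPKM + 1) in the earlier table, adjusted over 12989 genes, the adjusted p ran from 0.980 to 0.992 for the 9 genes, and 0 of 9 had an unadjusted p under 0.05. The background was 0% of all genes called, 4.56% with an unadjusted p under 0.05, and 9.37% with groups that did not overlap. A voom fit on recovered reads also called 0 of the 9 genes and had 0 with an unadjusted p under 0.05.

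Nr3c1 had 15.2, 20.4 and 15.1 FPKM in the Con samples and 13.6, 14.2 and 14.0 in the HMD samples of the earlier table. The HMD samples lay close together, and the second Con sample was far above the rest. The log2 change of the glucocorticoid receptor was -0.25 (SE 0.13, 95% interval -0.56 to 0.07). Leaving out single samples moved it between -0.32 and -0.11, the latter without that Con sample.

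Nr3c2 had 33.8, 38.2 and 31.3 FPKM in Con and 28.0, 33.6 and 27.3 in HMD. The second HMD sample reached into the Con range, so the groups of the mineralocorticoid receptor overlapped. Its log2 change was -0.21 (SE 0.13, 95% interval -0.51 to 0.09), and that of Hsd11b1, whose product regenerates hormone, was -0.16 (SE 0.13, -0.45 to 0.14).

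Hsp90aa1, the inducible HSP90 gene, had 294, 321 and 299 FPKM in Con and 289, 277 and 272 in HMD. All HMD samples were lower, with only a small gap between the highest of them and the lowest Con sample. The log2 change was -0.13 (SE 0.11, 95% interval -0.37 to 0.12). For the constitutive HSP90 gene Hsp90ab1 it was -0.05 (SE 0.12), for Fkbp4 -0.12 (SE 0.22), for Ptges3 0.03 (SE 0.18), for Crh 0.13 (SE 0.18) and for Crhr1 0.04 (SE 0.18), with overlapping groups. The intervals leave room for changes in either direction, the widest being that of Fkbp4 from -0.64 to 0.39. Sums of tissue markers were read in this comparison too, although none of the markers was called. The 9 markers of thalamus summed to 31.2 to 42.8 FPKM in Con and 48.5 to 124 in HMD, with none at 0. Calb2, also in the interneuron set below, had 19.4 ± 8.24 FPKM of this in Con and 27.5 ± 5.53 in HMD, with overlapping groups. Of the 8 thalamus markers tested, 6 were higher in every HMD sample than in any Con sample and none was lower. The 14 markers of hippocampal subfields summed to 302 to 335 and 277 to 316, ranges that overlapped, also with none at 0. Of these 14, 2 were higher in every HMD sample than in any Con sample and 2 were lower. The part of both marker sets in the values of the 9 genes was not tested.

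The comparison of Bet+HMD with HMD asked what betaine changed after the diet. The corticosteroid receptors moved in opposite directions. Nr3c1 rose and Nr3c2 fell, and Hsd11b1, Hsp90aa1, Hsp90ab1 and Ptges3 fell as well. Their group means differed from HMD by 21.7% for Nr3c1, -20.1% for Nr3c2, -23.6% for Hsd11b1, -20.2% for Hsp90aa1, -18.1% for Hsp90ab1 and -27.3% for Ptges3. Fkbp4, Crh and Crhr1 did not pass the test. The count was 6 of 9 genes, 1 higher and 5 lower, against a background of 48.3% of 13672 genes called (22.8% higher and 25.5% lower). The same 6 genes had groups that did not overlap, which held for 60.1% of all genes. With so large a background these counts say little about the 9 genes as a group, and the sizes below are the result. The median log2 change of the 9 genes was -0.29, beside -0.03 over all genes. Better expressed genes lay lower as a whole. Among the 7549 genes with a mean of at least 5 FPKM, 7 of the 9 included, the median was -0.14. Of these 7549 genes 1365 were called higher and 2801 lower, so part of the falls below is shared by genes of like level.

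Nr3c1 had 13.9, 14.7 and 14.2 FPKM in HMD and 17.7, 15.9 and 18.4 in Bet+HMD. Every Bet+HMD sample was above every HMD sample. The mean of the glucocorticoid receptor went from 14.3 ± 0.384 FPKM in HMD to 17.3 ± 1.33 in Bet+HMD, with a log2 change of 0.26 (SE 0.08, limma adjusted p 0.0267, the log2 change being the difference of mean log2(FPKM + 1)). The call was lost without the first HMD sample (adjusted p 0.0705), the first Bet+HMD sample (0.0992) or the third (0.103).

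Nr3c2 had 28.3, 34.5 and 27.7 FPKM in HMD and 23.8, 23.9 and 24.6 in Bet+HMD. The Bet+HMD samples of the mineralocorticoid receptor were nearly equal and lay below all HMD samples, of which the second was high. The mean went from 30.2 ± 3.80 to 24.1 ± 0.412 FPKM, a log2 change of -0.31 (SE 0.09, limma adjusted p 0.0325). Without any one of the Bet+HMD samples the adjusted p was 0.0985, 0.0981 and 0.0772.

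Hsd11b1 had 6.04, 6.65 and 7.02 FPKM in HMD and 5.40, 5.11 and 4.54 in Bet+HMD. All Bet+HMD samples of this enzyme gene were below the HMD samples, by a log2 change of -0.33 (SE 0.09, limma adjusted p 0.0197). Leaving out the second or the third Bet+HMD sample gave an adjusted p of 0.0587 and 0.0766.

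The HSP90 genes, which are among the most abundant messages of the tissue, fell together. Hsp90aa1 had 295, 286 and 278 FPKM in HMD and 234, 223 and 229.6 in Bet+HMD, a log2 change of -0.32 (SE 0.06, limma adjusted p 0.00563). Hsp90ab1 had 472, 449.7 and 489 FPKM in HMD and 397, 385 and 373 in Bet+HMD, a log2 change of -0.29 (SE 0.07, adjusted p 0.0124). Neither gene had overlapping groups. Hsp90aa1 was the one gene of the 6 called without each sample in turn, while Hsp90ab1 was lost without the second (0.0576) or the third (0.0522) Bet+HMD sample.

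Ptges3 had 38.7, 49.9 and 36.8 FPKM in HMD and 31.5, 29.9 and 29.7 in Bet+HMD. The Bet+HMD samples of this p23 gene were lower and much closer together. The log2 change was -0.44 (SE 0.12, limma adjusted p 0.0185), with 0.0629 and 0.0617 when the second or the third Bet+HMD sample was left out. Its value is uncertain because a processed copy, Ptges3-ps (chromosome 6, 85843980 to 85844459), averaged 52.3 ± 8.39 FPKM in HMD and 36.7 ± 5.24 after betaine, and reads can be split between copies. The copy moved the same way, by -0.50 on the log2 scale (adjusted p 0.0263).

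Fkbp4, the gene of the other HSP90 partner, had 21.1, 19.1 and 28.3 FPKM in HMD and 17.5, 21.6 and 18.0 in Bet+HMD. These groups overlapped, and the log2 change of -0.23 (SE 0.15, 95% interval -0.59 to 0.12) had an adjusted p of 0.239. Its interval includes the values of both HSP90 genes.

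The genes of the CRH pair had low levels and overlapping groups. Crh had 1.09, 1.73 and 1.17 FPKM in HMD and 1.74, 1.63 and 1.17 in Bet+HMD, a log2 change of 0.11 (SE 0.16, limma adjusted p 0.572). Crhr1 had 3.63, 3.42 and 4.96 FPKM in HMD and 4.82, 5.29 and 3.67 in Bet+HMD, a log2 change of 0.16 (SE 0.15, adjusted p 0.418). The 95% interval of Crh, at 25 to 40 reads per library, ran from -0.25 to 0.48, and that of Crhr1, at 129 to 230 reads, from -0.20 to 0.53.

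**Figure D2:**
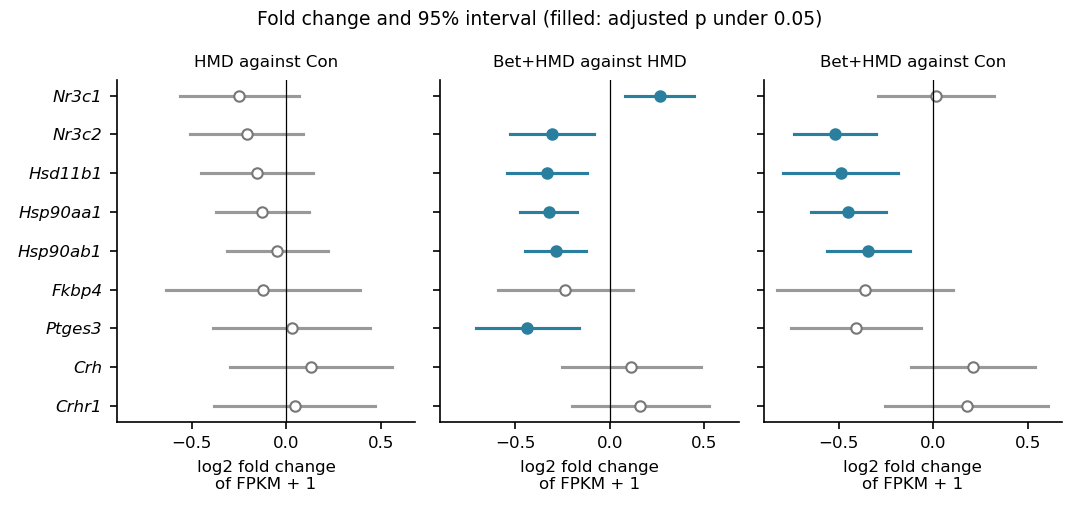
Log2 fold change of FPKM + 1 (horizontal axis) for the 9 genes (rows) in 3 comparisons, with lines for the 95% interval of limma, not adjusted for the number of genes, and filled points for an adjusted p under 0.05. No point is filled for HMD against Con, 6 are filled for Bet+HMD against HMD and 4 for Bet+HMD against Con, and in the middle panel Nr3c1 alone is filled to the right of 0.

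Bet+HMD was also compared with Con, to ask whether the levels after betaine were those of the standard diet. Nr3c2, Hsd11b1, Hsp90aa1 and Hsp90ab1 were lower in Bet+HMD than in Con, while Nr3c1 was close to its Con level. The count was 4 of 9 genes called, all lower, against a background of 39.7% of 13643 genes called and 20.4% called lower. Groups did not overlap at 5 of the 9 genes and at 55.1% of all genes, and the median log2 change was -0.36 for the 9 genes and -0.04 over all. Among genes with a mean of at least 5 FPKM the median was -0.13. This comparison shares the Bet+HMD samples with the one above, and the HMD samples there are those compared with Con, so the values stand side by side and do not support each other.

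For Nr3c2 the Con samples had 34.6, 38.6 and 32.1 FPKM, all above the HMD mean and far above the Bet+HMD samples. The mean fell from 35.1 ± 3.30 in Con to 24.1 ± 0.412 in Bet+HMD, by 31.3%, with a log2 change of -0.52 (SE 0.09, limma adjusted p 0.00507). The call held without each sample in turn, with an adjusted p of at most 0.0301.

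For Nr3c1 the Con samples had 15.6, 20.7 and 15.6 FPKM, a mean of 17.3 ± 2.97 beside 17.3 ± 1.33 in Bet+HMD. These groups overlapped fully. The log2 change was 0.01 with a 95% interval from -0.29 to 0.32, and its sign changed without the first or the third Con sample or the first or the third Bet+HMD sample (between -0.05 and -0.0025).

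Hsd11b1 had 7.86, 6.11 and 8.53 FPKM in Con, all above the Bet+HMD samples, with a log2 change of -0.49 (SE 0.13, limma adjusted p 0.0223). The call was lost without the first Con sample (adjusted p 0.0681) or any one Bet+HMD sample (0.0518 to 0.0861). Hsp90aa1 had 301, 328 and 308 FPKM in Con and a log2 change of -0.45 (SE 0.08, adjusted p 0.00631), called without each sample in turn. Hsp90ab1 had 527, 457 and 484 FPKM in Con and a log2 change of -0.34 (SE 0.09, adjusted p 0.0254). That call was lost without the first Con sample (0.0584) or any one Bet+HMD sample (0.083 to 0.105).

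Ptges3 had 40.4, 49.8 and 33.2 FPKM in Con, again above all Bet+HMD samples, but its log2 change of -0.41 had an adjusted p of 0.0625, and it was called (0.00752) only without the third Con sample, the lowest. The copy Ptges3-ps fell from 55.5 ± 6.47 FPKM in Con by 0.59 on the log2 scale (adjusted p 0.0141). Fkbp4 had 22.6, 19.7 and 33.6 FPKM in Con, and its log2 change of -0.36 (SE 0.20) had an adjusted p of 0.185. Crh, with 0.963, 1.31 and 1.24 FPKM in Con, and Crhr1, with 4.88, 4.19 and 2.88, had log2 changes of 0.21 and 0.18 and adjusted p of 0.267 and 0.475, with groups that overlapped.

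The scale on which libraries are compared bears on these values. FPKM summed to less per Bet+HMD library than per other library. Rescaling to TPM, which makes every library sum to the same total, moved the median change over all genes (log2) from -0.03 to 0.16 against HMD and from -0.04 to 0.17 against Con. The share of called genes that were higher went from 47.2% to 69.5% against HMD and from 48.8% to 73.5% against Con. On the TPM scale Nr3c1 was the only one of the 9 genes called against HMD (log2 change 0.47, adjusted p 0.00327), and Nr3c2 was the only one called against Con (-0.31, adjusted p 0.0258). No fold change of the 9 genes turned its sign between FPKM and TPM in either comparison.

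Relative to the median of all genes, the sizes were nearly the same on both scales. Rescaling to TPM multiplies all genes of a library by the same factor, so this likeness follows from the arithmetic. It is no test of the sizes, and the values give only the distance of each gene from the median. Against HMD, Nr3c1 was 0.29 above the median under FPKM and 0.31 above it under TPM, and Nr3c2 was below it by -0.28 on both. For Hsp90aa1 these values were -0.30 and -0.28, for Hsp90ab1 -0.26 and -0.25, for Hsd11b1 -0.31 and -0.34, and for Ptges3 -0.41 on both. Against Con, Nr3c2 lay -0.48 below the median on both scales and Nr3c1 lay 0.05 and 0.07 above it.

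**Figure D3:**
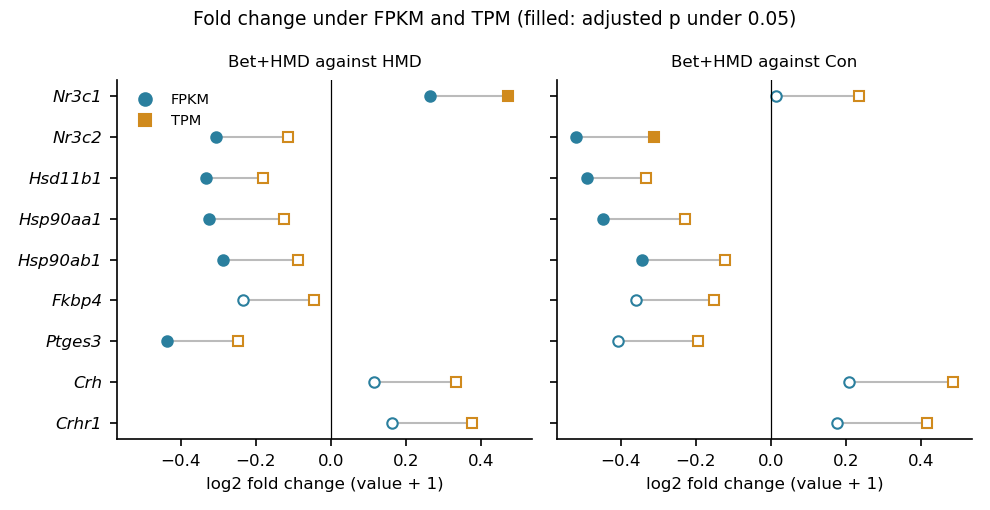
Log2 fold change of value + 1 (horizontal axis) of the 9 genes (rows) under FPKM (circles) and TPM (squares), filled where the adjusted p is under 0.05, for Bet+HMD against HMD and against Con. All squares lie to the right of their circles, and the filled squares are Nr3c1 against HMD (0.47) and Nr3c2 against Con (-0.31).

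A ratio between genes within 1 library does not depend on that scale. The balance of the receptors, FPKM of Nr3c2 over FPKM of Nr3c1, was 2.22, 1.86 and 2.06 in Con, 2.03, 2.35 and 1.95 in HMD, and 1.34, 1.51 and 1.33 in Bet+HMD. All Bet+HMD samples were below every other sample, and Con and HMD overlapped. The mean was 2.05 ± 0.179 in Con, 2.11 ± 0.211 in HMD and 1.40 ± 0.0990 in Bet+HMD. The log2 ratio of Bet+HMD was lower than that of HMD by -0.60 and than that of Con by -0.55, and the exact permutation test (two-sided) gave p = 0.1 for both, the smallest that 3 against 3 samples can give, so the design cannot reach 0.05. Between HMD and Con, in the earlier table, it differed by 0.05 (exact permutation p 0.7). Leaving out single samples gave -0.65 to -0.52 against HMD and -0.62 to -0.49 against Con.

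The HSP90 genes kept closer to each other. Hsp90aa1 over Hsp90ab1 was 0.642 ± 0.0734 in Con, 0.610 ± 0.0354 in HMD and 0.594 ± 0.0190 in Bet+HMD, with overlapping samples. The exact permutation p was 0.4 for HMD against Con, 0.6 for Bet+HMD against HMD and 0.4 for Bet+HMD against Con, and the log2 differences were -0.08, -0.04 and -0.11. With 6 ratio comparisons made, no raw p was below 0.1.

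**Figure D4:**
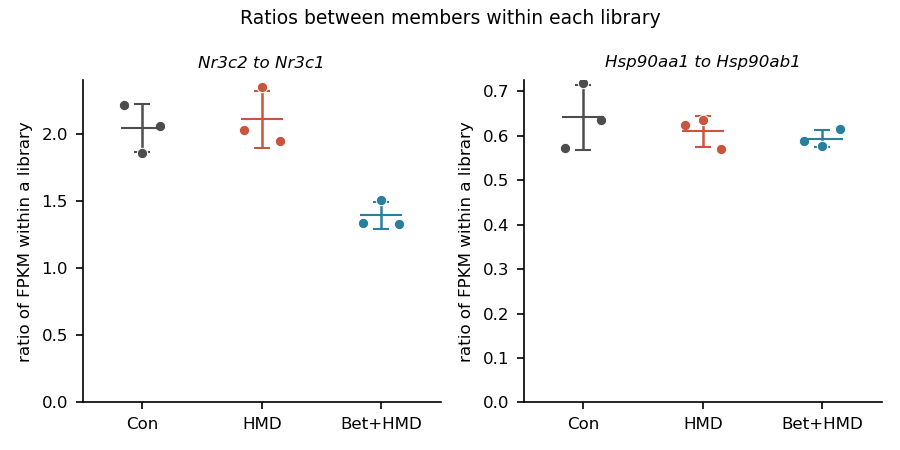
Ratio of FPKM within a library (vertical axis from 0) for Nr3c2 to Nr3c1 and for Hsp90aa1 to Hsp90ab1 in the 9 samples of the later table, with points for samples and bars for the mean ± SD. The receptor ratio of Bet+HMD (1.33 to 1.51) lies below all Con and HMD samples (1.86 to 2.35), and the HSP90 ratio overlaps between all groups.

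Summed FPKM of markers of cells that carry these receptors was lower in the Bet+HMD group. The 14 hippocampal subfield markers, none at 0, summed to 264 to 270 FPKM in Bet+HMD, 279 to 322 in HMD and 310 to 340.5 in Con. The 11 markers of GABA interneurons, the cells in which hippocampal Crh is made, summed to 281 to 349 FPKM in Bet+HMD, 402 to 555 in HMD and 420.1 to 511 in Con, with none at 0. All Bet+HMD sums were below those of the other groups, but a sum is carried by its highest genes. These sums were also not rescaled. FPKM of all genes totalled 249135 to 258514 per Bet+HMD library and 288439 to 307899 per other library of the later table. Of the subfield markers 1 was called higher and 4 lower against HMD, and 9 were not called (median log2 change -0.08). Under TPM 4 were called higher and 4 lower (median 0.12). Of the interneuron markers none was called higher and 5 lower, and under TPM none higher and 4 lower. The part of these markers in the values of Nr3c2, Nr3c1 and Crh was not tested. Neither was that of the nuclear noncoding RNAs, of which 8 of 8 tested rose against both groups.

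Other genes of the pathway were read from lists. None of the tested genes of these 6 lists had an adjusted p under 0.05 for HMD against Con, where the list medians ran from -0.16 for the cochaperone list to 0.34 for glucocorticoid-induced genes. The values below for the Bet+HMD comparisons stand against the backgrounds given above.

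Of 16 further cochaperones of the receptor complex, 3 rose and 4 fell in Bet+HMD against HMD, and 1 rose and 6 fell against Con. Their median log2 changes were -0.02 and -0.22, beside -0.03 and -0.04 over all genes. Fkbp5, a target gene of the glucocorticoid receptor whose product lowers hormone binding, fell from 11.4 ± 0.213 FPKM in HMD to 4.66 ± 0.180 in Bet+HMD (log2 change -1.13, limma adjusted p 5.44e-05) and had 7.32 ± 0.336 in Con. Its level in HMD of the earlier table was 11.3 ± 0.175 beside 7.17 ± 0.306 in Con, with groups that did not overlap and an adjusted p of 0.339. Bag1, an HSP70 cochaperone, fell from 61.7 ± 8.93 in HMD to 36.7 ± 2.71 (-0.73, adjusted p 0.00216). Fkbp5 and Fkbp4, whose products compete for the same place on HSP90, thus had a called and an uncalled difference, and the difference between them was not tested.

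Of 12 genes of the heat shock response, 2 rose and 2 fell against HMD, and 2 rose and 5 fell against Con, with median log2 changes of -0.07 and -0.22. Hspe1, a mitochondrial chaperone, fell from 25.2 ± 0.985 FPKM in HMD to 12.2 ± 2.97 (log2 change -1.01, limma adjusted p 0.00195). Hspa1b, an inducible HSP70 gene, fell from 4.36 ± 0.633 to 1.81 ± 0.358 FPKM (-0.93, adjusted p 0.00135). Against Con these genes fell by 1.30 and 1.00 on the log2 scale.

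Of 12 genes of steroid access and interconversion, 6 were high enough to be tested, and 1 fell against each group, with medians of -0.01 and -0.13. This was Tspo, of the outer mitochondrial membrane, from 4.39 ± 0.449 FPKM in HMD and 4.38 ± 1.61 in Con to 1.52 ± 0.293 in Bet+HMD (log2 changes -1.10 and -1.05, limma adjusted p 0.000422 and 0.0104).

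Of 16 nuclear receptor coregulators, 8 rose and none fell against HMD, and 7 rose and none fell against Con, where 22.8% and 19.4% of all genes were called higher. The median was 0.31 and 0.28, beside -0.03 and -0.04 over all genes. Ncoa3, a coactivator, rose from 4.68 ± 0.733 FPKM in HMD to 7.94 ± 0.121 (log2 change 0.66, limma adjusted p 0.00217), and Crebbp, an acetyltransferase, rose from 4.90 ± 1.35 in Con to 8.89 ± 0.362 (0.77, adjusted p 0.0128).

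Of 12 genes known to be induced by glucocorticoids, 7 were higher in every HMD sample than in any Con sample and 1 was lower, where groups did not overlap in these directions at 4.71% and 4.66% of all genes. Their median log2 change was 0.34, beside -0.0038 over all genes. The list was chosen with such values known, so it is no independent evidence of its direction. Fkbp5, given with the cochaperones above, is also on this list. It is 1 of the 7 and counts again among the genes that fell in Bet+HMD. Cdkn1a, a cell cycle inhibitor, had 3.00 ± 0.103 FPKM in Con and 9.02 ± 1.91 in HMD (1.31, limma adjusted p 0.186). In Bet+HMD against HMD 1 gene rose and 9 fell, with a median of -0.79, and against Con 1 rose and 6 fell, with a median of -0.26. Cdkn1a fell from 9.00 ± 1.95 FPKM to 2.72 ± 0.209 (-1.41, adjusted p 0.000318), and Nfkbia, an inhibitor of NF-kappa-B, from 22.6 ± 2.76 to 8.97 ± 0.904 (-1.24, adjusted p 0.000229). Both comparisons use the HMD samples. Against Con, Ddit4, an inhibitor of mTOR signalling, fell by 0.87 and Dusp1, a phosphatase of MAP kinases, by 0.68 on the log2 scale (adjusted p 0.042 and 0.00382). Ddit4 did not pass on the TPM scale (0.109).

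Of 15 other genes of the CRH family and the pituitary axis, 7 were tested against HMD and 6 against Con, of which 4 and 2 fell and none rose, with medians of -0.45 and -0.35. Avp, the vasopressin gene, fell from 2.42 ± 0.627 FPKM in HMD to 0.432 ± 0.416 (log2 change -1.28, limma adjusted p 0.00424). Avp passed the minimum mean of 1 FPKM through its HMD samples alone, so the filter favoured a fall. It counts among the 4 and enters the median of -0.45, and it was not tested against Con. Npy2r, a neuropeptide Y receptor, fell from 22.0 ± 5.98 to 13.1 ± 0.303 (-0.67, adjusted p 0.0162). Mc4r, a melanocortin receptor, fell from 2.16 ± 0.182 FPKM in Con to 1.17 ± 0.0891 (-0.54, adjusted p 0.00706). Avp and Oxt also belong to the 7 hypothalamus markers, whose sum was 1.26 to 3.41 FPKM in Con, 4.87 to 5.22 in HMD and 1.67 to 2.92 in Bet+HMD, with Hcrt at 0 in all Con and Sim1 at 0 in all HMD libraries. Oxt, the oxytocin gene, had 0.473 ± 0.471 FPKM in Con and 1.60 ± 0.824 in HMD of the earlier table (adjusted p 0.98). The part of these markers in Crh and Crhr1 was not tested.

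The TPM scale moved these lists upward. Under it the cochaperone list had 3 higher and 3 lower calls against HMD and 2 and 4 against Con, with medians of 0.18 and -0.0054, so that the first median changed sign. Heat shock genes had 3 higher and 2 lower against HMD and 3 and 4 against Con, steroid access genes 1 and 1 against HMD and 0 and 1 against Con, and coregulators 11 higher and 0 lower in both. Glucocorticoid-induced genes had 2 higher and 9 lower against HMD and 3 and 4 against Con, and the CRH family had 1 and 3 against HMD and 0 and 2 against Con. The medians of heat shock genes against HMD (0.11) and of steroid access genes in both comparisons (0.17 and 0.06) also changed sign, and that of the heat shock genes against Con was -0.02.

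The genes whose levels followed the receptors most closely were found among 7527 genes with a mean of at least 5 FPKM, by Pearson's r of log2(FPKM + 1) over the 9 samples, which share groups, batches and depth. For Nr3c2 these were D430019H16Rik (r = 0.989), Topors (0.986) and Pde1a (0.978). Each had its highest mean in Con and its lowest in Bet+HMD, such as 49.6 ± 4.60, 43.7 ± 6.20 and 35.2 ± 1.02 FPKM for Pde1a. For Nr3c1 they were Btbd8 (0.907), Dync1li2 (0.904) and Eloa (0.899), each lowest in HMD. For Crh they were Hmgb1 (0.845), Gramd4 (0.835) and Asb13 (0.826), the loosest likeness of the 3 sets.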

How the data were processed

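Total RNA of the hippocampus was depleted of ribosomal RNA and sequenced from stranded paired-end libraries. Per the submitters' processing notes, reads were aligned with HISAT2 (2.1.0) to mm10 and counted with featureCounts (1.5.0-p3). The study's methods give other versions. The authors deposited FPKM in 2 tables, which also list gene lengths (another unit, bases). FPKM times length and library size gave whole reads for 100% of values (tolerance 0.01), from which depth was taken. Con columns carry the prefix COL, and this match is inferred.

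The study names count tools. Since FPKM are not counts, limma (3.58.1, R 4.3.3) with an intensity trend modelled log2(FPKM + 1) of both groups of a comparison, for genes with a mean of at least 1 FPKM. Such fold changes understate those of low genes. p-values were two-sided, with Benjamini-Hochberg adjustment across every tested gene and a threshold of 0.05. HMD and Con were compared in the earlier table, other pairs in the later one. Ratios were tested by exact permutation with scipy (1.17.1). No source states that the samples of a group are separate mice, so p-values measure the spread between these samples, which may be technical, and the read floor covers counting error only.

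The 9 genes and all lists were chosen with earlier results of these data known. All 9 are named, and from each other list at most 2 called genes with the largest change per comparison (or the 1 with the smallest p), and the 3 genes most like Nr3c1, Nr3c2 and Crh. 1 gene that this rule names is not reported here. Titles number the replicates. Deviations of same-numbered samples correlated at -0.18 to 0.35, not above 0.1 in every pair, so the numbers were not taken as pairs. Alternatives were another pseudocount (0.1), no filter or 5 FPKM, TPM, median centring, voom on recovered reads, all groups in 1 fit, a replicate block, the later table, and leaving out each sample.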

Additional observations from a re-analysis of the deposited data

How the results depend on the processing

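For HMD against Con, 0 of the 9 genes were called under every alternative run (7 tested with the filter at 5 FPKM, which Crh and Crhr1 did not pass). Over all genes, 10 were called with all 3 groups in 1 fit and 0 to 2 without single samples. Without single samples the log2 change of Hsp90ab1 ran from -0.093 to 0.0091, that of Fkbp4 from -0.29 to 0.088, of Ptges3 from -0.11 to 0.17, of Crh from -0.046 to 0.23 and of Crhr1 from -0.12 to 0.18. Likewise the log2 difference of the ratio of Nr3c2 to Nr3c1 ran from -0.034 to 0.11 and that of Hsp90aa1 to Hsp90ab1 from -0.16 to 0.0040. For Bet+HMD against HMD, 6 of the 9 genes were called, 1 under TPM, 2 with the replicate block, 4 without a filter, 4 with all groups in 1 fit, and 1 to 6 without single samples (1 without the third Bet+HMD sample, 2 without the second). Over all genes 6607 were called, and 4166 with a filter at 5 FPKM, where fewer genes were tested. For Bet+HMD against Con, 4 of the 9 genes were called, 1 under TPM, 2 with the replicate block, and 2 to 5 without single samples (2 without the first Con sample or any one Bet+HMD sample). Over all genes 5422 were called, 3260 with a filter at 5 FPKM, 3924 with the block, and 3302 to 6269 without single samples. Nr3c1 ran from -0.051 to 0.14 there without single samples. The replicate block, whose numbers were not shown to pair the samples, kept Hsp90aa1 and Ptges3 against HMD and Nr3c2 and Hsp90aa1 against Con. The causes were not tested. With 3 samples a group, exact tests cannot go below 0.1, and Crh rested on 23 to 42 reads per library.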

Other observations

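Markers of other cell types, summed in FPKM per library of the later table, give the setting of these values, with none of the markers named here at 0 in all libraries of a group. The 7 astrocyte markers summed to 526 to 670.4 in Con, 551 to 679 in HMD and 586 to 613 in Bet+HMD, ranges that overlapped. Brain endothelium (5 markers) had 45.7 to 48.3 in Con, 39.9 to 41.6 in HMD and 36.4 to 37.6 in Bet+HMD, and these ranges were separate. The sums were not rescaled for the lower FPKM totals of the Bet+HMD libraries. Against HMD none of these 5 was called higher and 1 lower, and under TPM 2 were called higher and none lower. Against Con none was called higher and 1 lower, and under TPM 1 higher and 1 lower. The 6 microglia markers had 70.9 to 88.1, 62.1 to 72.8 and 60.9 to 64.7, and the 6 oligodendrocyte markers had 671 to 1143, 752 to 1012 and 732 to 739.

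Choroid plexus varied most within a group, with 770 to 3201 over the 5 markers in Con, 866 to 2574 in HMD and 935 to 1210 in Bet+HMD. Thalamus (9 markers) had 31.1 to 43.5, 50.04 to 125 and 34.0 to 36.1, and striatum (7 markers) had 26.8 to 37.4, 30.8 to 50.1 and 33.3 to 35.5. Red blood cell genes (5) had 99.8 to 148, 149 to 233 and 72.2 to 122, with HMD above the other groups. These sums are descriptions, and their part in the values of the corticosteroid genes was not tested.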
